A study of Mus musculus with 103 samples.

Results

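The 9 genes described here carry the response of a cell to unfolded protein in the endoplasmic reticulum (ER) and to a shortage of amino acids: Hspa5, Dnajb9, Herpud1, Xbp1, Atf4, Ddit3, Asns, Trib3 and Sesn2. They were taken by symbol from a table of 24014 gene symbols, with the transcript of highest mean level standing for each gene. All 9 were among the 10605 genes that had a level of at least 1 RPKM (reads per kilobase of mRNA, divided by the library total) in at least 2 libraries. Their levels were followed through 24 h of an inflammatory stimulus in mouse macrophages, and binding of SREBP1 and LXR was read within 10 kb of their start sites.

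The cells were macrophages drawn from the peritoneum of male C57BL/6 mice aged 6 to 8 weeks, 3 to 4 days after an injection of thioglycollate, which recruits monocytes into the cavity. Every culture was held overnight in 0.5% serum before treatment. KLA (Kdo2-lipid A, the lipid anchor of bacterial lipopolysaccharide, which activates the receptor TLR4) was given at 100 ng/ml for 1, 6, 12 or 24 h. There was 1 library of poly(A) RNA per time, 1 untreated library that served as control for 1 to 12 h, and 1 untreated library that served as control for 24 h. SREBP1 (a transcription factor of lipid synthesis) and LXR (nuclear receptors for oxysterols) were mapped by ChIP-seq after 1 µM GW3965, a synthetic LXR agonist, with 1 peak list each. The SREBP1 label gives 18 h of GW3965, and the LXR file's header names another time than that. The sources used here do not say whether mice were pooled.

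With 1 library per condition no difference has a replicate check and no p-value is given. Intervals on levels and ratios are 95% exact intervals on recovered read numbers. They cover counting error only. The libraries held 2205187 to 2674826 reads (totals inferred from the values), so that 1 read in a transcript of 1 kb was worth 0.374 to 0.453 RPKM. A gene was counted as higher or lower when log2(RPKM + 1) differed by at least 2-fold, a scale that understates changes of weakly expressed genes, whereas a fold given for a gene is its plain RPKM ratio. Over all genes tested, log2(RPKM + 1) ratios after KLA had medians of −0.16 (1 h), −0.46 (6 h), −0.32 (12 h) and −0.09 (24 h), and the members' ratios are to be read against those shifts. KLA at 1, 6 and 12 h shared 1 untreated library, so these 3 comparisons are not independent. Macrophage markers summed to 6406 to 11249 RPKM in every library. Most of this sum was Lyz2, at 8848 RPKM in the untreated library for 1 to 12 h and 3936 RPKM in KLA 24 h. At 24 h, 2 of the 7 markers were 2-fold higher (Emr1 and Cd14), beside 9.98% of all genes tested, and 1 was lower (Itgam), beside 10.6%. Summed fibroblast and mesothelial markers were at 84.7 to 102 RPKM in 5 libraries and 171 RPKM in KLA 24 h. In KLA 24 h this sum was nearly all Dcn, Col1a1 and Col1a2 (104, 29.2 and 36.9 RPKM). The mesothelial markers Msln and Upk3b were at 0.884 and 0 RPKM there, beside 0.366 and 2.85 RPKM in the untreated library of 24 h. Summed neutrophil markers were at 40.0 to 80.0 RPKM in 5 libraries and 122 RPKM in KLA 24 h, with Mpo listed at 0 throughout. The neutrophil sum was nearly all S100a8 (118 RPKM in KLA 24 h), while S100a9, Elane and Ngp were listed at 0 in KLA 24 h. Camp was at 4.78 RPKM in KLA 12 h, 4.38 RPKM in KLA 24 h and 0 in the other libraries. The part of these cells in the results at 24 h was not tested. B and plasma cell markers summed to 6.65 to 13.0 RPKM. T and NK, mast and eosinophil, and dendritic cell markers each summed to at most 1.13 RPKM. In such bulk RNA, fewer cells of a type and less RNA per cell cannot be told apart.

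When unfolded proteins accumulate in the ER, the sensors IRE1, ATF6 and PERK set off the unfolded protein response. IRE1 splices Xbp1 mRNA into a form that encodes an active transcription factor, ATF6 is cut to release one, and PERK phosphorylates the initiation factor eIF2α, which slows protein synthesis while favouring translation of Atf4. Lack of amino acids acts on eIF2α through another kinase, GCN2, so that ATF4 is shared by both arms. Xbp1 splicing and Atf4 translation are not read by a level of poly(A) RNA per gene.

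Promoters of these genes are textbook examples of the elements these factors bind. The 250 bases before the RefSeq start site are shown for the 4 members with a motif match and for Ddit3. Ddit3 is 1 of the 6 members with both SREBP1 and LXR peaks listed within 10 kb of the start site. The sequences come from RefSeq on GRCm38.p6, which held all 9 members, and capitals mark the matches. The ER stress element, searched as CCAAT, then 9 bases, then CCACG, and the core of the unfolded protein response element, TGACGTG, were both matched in Hspa5 (chr2:34771840-34772089, plus strand).
Hspa5: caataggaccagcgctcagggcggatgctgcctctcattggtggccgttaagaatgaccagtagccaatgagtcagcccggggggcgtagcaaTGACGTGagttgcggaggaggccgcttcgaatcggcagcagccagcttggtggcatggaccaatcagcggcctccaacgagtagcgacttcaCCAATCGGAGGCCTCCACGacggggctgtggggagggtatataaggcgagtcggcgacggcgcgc
The C/EBP-ATF response element, searched as TGATGNAA, was matched in Asns (chr6:7693210-7693459, minus strand), Herpud1 (chr8:94386179-94386428, plus strand) and Trib3 (chr2:152344039-152344310, minus strand). The Trib3 stretch runs 22 bases past the start site, since its match lay there.
Asns: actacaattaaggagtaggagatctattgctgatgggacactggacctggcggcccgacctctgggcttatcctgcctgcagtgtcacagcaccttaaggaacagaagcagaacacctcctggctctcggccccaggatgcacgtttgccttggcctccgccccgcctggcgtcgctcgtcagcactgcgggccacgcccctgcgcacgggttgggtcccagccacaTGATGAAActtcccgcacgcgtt
Herpud1: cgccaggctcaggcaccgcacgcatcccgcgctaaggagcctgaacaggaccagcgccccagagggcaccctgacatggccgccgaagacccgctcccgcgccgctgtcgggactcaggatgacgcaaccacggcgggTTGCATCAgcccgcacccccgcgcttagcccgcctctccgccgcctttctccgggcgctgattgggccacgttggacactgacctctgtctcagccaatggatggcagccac
Trib3: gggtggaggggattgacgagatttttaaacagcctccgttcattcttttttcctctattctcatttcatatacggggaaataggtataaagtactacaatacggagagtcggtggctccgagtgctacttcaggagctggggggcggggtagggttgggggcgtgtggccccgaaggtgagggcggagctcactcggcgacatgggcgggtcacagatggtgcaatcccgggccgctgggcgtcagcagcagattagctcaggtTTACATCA
None of the motifs searched was matched in Ddit3 (chr10:127290543-127290792, plus strand).
Ddit3: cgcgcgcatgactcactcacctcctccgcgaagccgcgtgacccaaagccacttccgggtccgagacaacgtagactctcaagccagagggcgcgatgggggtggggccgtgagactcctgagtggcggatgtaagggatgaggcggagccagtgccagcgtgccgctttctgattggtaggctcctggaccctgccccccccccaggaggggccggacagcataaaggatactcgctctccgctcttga

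Both strands were searched over the whole 300-base windows, and no matches overlapped. The ER stress element began 65 bases before the Hspa5 start site and was present in 0.119% of 32851 promoters. The unfolded protein response core began 157 bases before it, with a match in 2.01% of promoters. The C/EBP-ATF element began 23 bases before the start of Asns, 112 before that of Herpud1 and 14 after that of Trib3, the last pair read on the opposite strand, and it was present in 3.97% of promoters. Elements of the lipid regulators were searched in the same way: the sterol element TCACCCCA (1.56% of promoters), the E-box TCACGTGA (0.974%), and AGGTCA repeated with 4 bases between, an LXR half-site pair (0.0152%). These were matched in 0 of the 9 members. A match is a string of letters and not evidence of binding, and a missing match says only that these letters are not in this window.

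The members did not move as a block, and their counts are given beside the share of all genes tested that passed the same line. At 1 h, 0 of 9 members were at least 2-fold higher, against 3.65% of all genes tested, and 0 were lower, against 4.09%. At 6 h, 3 of 9 were lower (Ddit3, Herpud1 and Dnajb9), against 22.4%, and 0 higher, against 9.35%. At 12 h only Herpud1 was lower, against 16.3%, and 0 members were higher, against 8.88%. At 24 h, 3 of 9 were higher (Ddit3, Asns and Trib3), against 9.98%, and 0 lower, against 10.6%. Some members went the other way, with Asns and Hspa5 above their control at 6 h and Herpud1 and Xbp1 below it at 24 h. The members' median log2(RPKM + 1) ratio was 0.01, −0.58, 0.22 and 0.83 at the 4 times, beside the medians over all genes given above. Between the untreated libraries 0 members were 2-fold apart, where 1.72% of genes were higher and 2.42% lower at 24 h. Of the 6 libraries, KLA 24 h held the highest level of 7 of 9 members, as it did for 20.5% of all genes, and KLA 6 h held the lowest level of 7 of 9, as it did for 36.2%. Not all of these ranks were resolved by counting error. KLA 24 h could not be told apart from the next highest library for Atf4, Dnajb9 and Sesn2. KLA 6 h was apart from the next lowest library only for Ddit3 and Dnajb9.

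**Figure D1:**
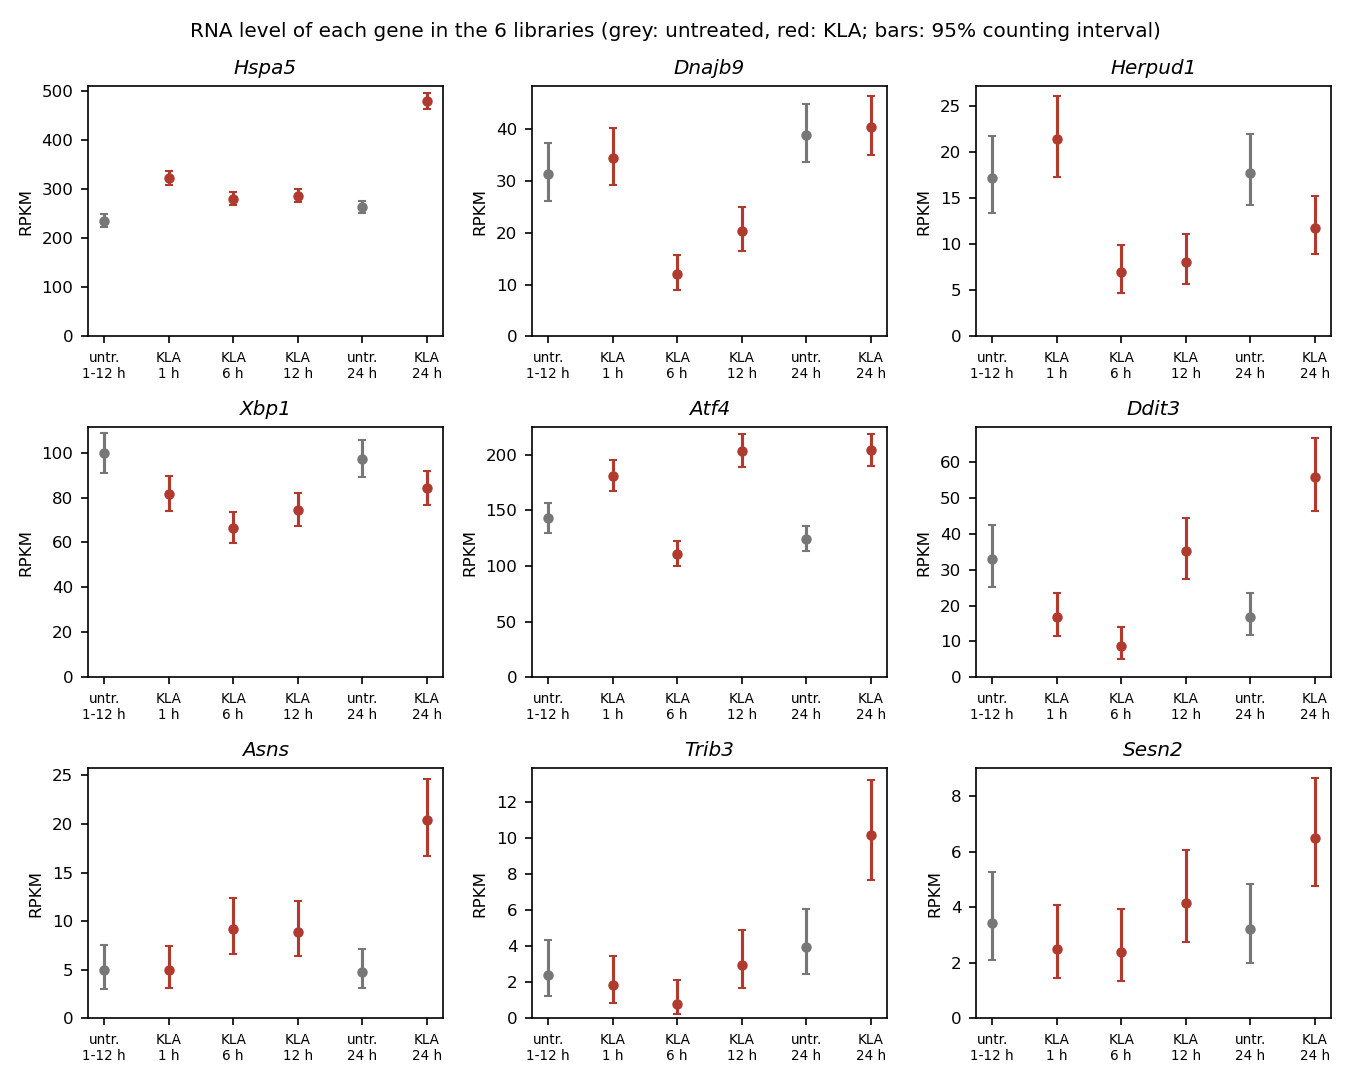
RPKM of the 9 genes (vertical axes, each from 0) in the 6 libraries (horizontal axis), with grey points for untreated and red points for KLA-treated cells and bars for 95% Poisson counting intervals of 1 library each. KLA 24 h is the highest point for 7 genes, and KLA 6 h the lowest for 7, but some of these points cannot be told apart from the next by counting error.

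Hspa5 encodes BiP, the main Hsp70 chaperone of the ER lumen, which also holds the stress sensors inactive. Its level was the highest of the 9 in every library, at 235 RPKM (untreated, 1 to 12 h), 322 (KLA 1 h), 279.9 (KLA 6 h), 287 (KLA 12 h), 262 (untreated, 24 h) and 479 (KLA 24 h). KLA 24 h stood apart from the other 5 libraries, and all 4 KLA libraries lay above both untreated ones. For KLA 6 h, however, the interval against the untreated library of 24 h included 1 (ratio 1.07, 0.996 to 1.14). Its ratio to the untreated library of 24 h was 1.83 (interval 1.72 to 1.94), and at 1, 6 and 12 h the ratios were 1.37, 1.19 and 1.22 with intervals above 1. Hspa5 was therefore just under the 2-fold line at 24 h. Set against the other untreated library it was just over it, at 2.04.

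Dnajb9 encodes ERdj4, a J-domain co-chaperone of BiP that is induced through XBP1 in many cells. Its levels were 31.4 RPKM (untreated, 1 to 12 h), 34.4 (KLA 1 h), 12.0 (KLA 6 h), 20.4 (KLA 12 h), 39.0 (untreated, 24 h) and 40.5 (KLA 24 h). Only KLA 6 h and KLA 12 h fell clear of the untreated libraries. At 6 h it was 2.62-fold lower (1.89 to 3.68), at 12 h 1.54-fold lower (1.17 to 2.03), and at 24 h the ratio was 1.04 (0.848 to 1.27). The 6 h difference was under 2-fold after rescaling to the median of all genes (log2 ratio −0.86). From KLA 6 h to KLA 24 h the level differed 3.38-fold (2.49 to 4.67).

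Herpud1 encodes an ER membrane protein that helps to organise the ubiquitin ligase of ER-associated degradation. It was at 17.2 RPKM (untreated, 1 to 12 h), 21.4 (KLA 1 h), 6.99 (KLA 6 h), 8.09 (KLA 12 h), 17.8 (untreated, 24 h) and 11.8 (KLA 24 h). From 6 h on, each KLA library was below both untreated libraries. The level was 2.46-fold lower at 6 h (1.59 to 3.89), 2.13-fold lower at 12 h (1.41 to 3.26) and 1.51-fold lower at 24 h (1.07 to 2.14). Herpud1 was the only member 2-fold lower at both 6 and 12 h, while Hspa5 was above its control at both times. After rescaling to the median of all genes the log2(RPKM + 1) ratios of Herpud1 at these times were −0.73 and −0.68, under 2-fold, and with a pseudocount of 3 the 12 h ratio was −0.87.

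Xbp1 encodes the transcription factor that IRE1 activates by splicing. Its levels were 99.7 RPKM (untreated, 1 to 12 h), 81.6 (KLA 1 h), 66.4 (KLA 6 h), 74.4 (KLA 12 h), 97.0 (untreated, 24 h) and 84.1 (KLA 24 h). All 4 KLA libraries were below both untreated libraries, by less than 2-fold. The largest difference was 1.50-fold lower at 6 h (1.31 to 1.73). At 24 h the ratio was 0.866 (0.767 to 0.978). Its log2(RPKM + 1) ratio of −0.58 at 6 h was near the shift of all genes and came to −0.12 once the libraries were rescaled to a median of 0.

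Atf4 encodes the transcription factor common to ER stress and amino acid shortage, which is controlled mainly in translation. It was at 143 RPKM (untreated, 1 to 12 h), 181 (KLA 1 h), 111 (KLA 6 h), 203 (KLA 12 h), 124 (untreated, 24 h) and 204 (KLA 24 h). KLA 1 h, 12 h and 24 h lay above both untreated libraries and KLA 6 h below both. Against the untreated library of 24 h, however, the interval at 6 h included 1 (ratio 0.889, 0.774 to 1.02). The ratios were 1.27 at 1 h (1.12 to 1.43), 1.42 at 12 h (1.26 to 1.60) and 1.64 at 24 h (1.46 to 1.84), and at 6 h the level was 1.29-fold lower (1.12 to 1.48). The direction at 6 h turned with the scaling: the log2(RPKM + 1) ratio was −0.37 as deposited and 0.09 after rescaling to the median of all genes. KLA 12 h and KLA 24 h could not be told apart in reads, at a ratio of 1.00 (0.905 to 1.11).

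Ddit3 encodes CHOP, a C/EBP-family factor downstream of ATF4 that is linked to cell death after long stress. Its levels were 33.1 RPKM (untreated, 1 to 12 h; 60 reads), 16.7 (KLA 1 h; 33 reads), 8.72 (KLA 6 h; 17 reads), 35.3 (KLA 12 h; 71 reads), 16.9 (untreated, 24 h; 36 reads) and 55.9 (KLA 24 h; 123 reads). KLA 6 h was the lowest and KLA 24 h the highest of the 6. The untreated libraries themselves differed: the one for 24 h was 1.96-fold lower (1.27 to 3.04) than the one for 1 to 12 h, the largest such difference among the members. Ddit3 was 3.80-fold lower at 6 h (2.19 to 6.94) and 3.31-fold higher at 24 h (2.26 to 4.93) against the designated controls. Against the other untreated library the ratio was 0.515 at 6 h and 1.69 (1.23 to 2.34) at 24 h, which keeps both directions but is under 2-fold. The ratio of 0.505 at 1 h became 0.988, and that of 1.07 at 12 h became 2.09. Between KLA libraries, with no untreated library involved, KLA 24 h was 6.42-fold above KLA 6 h (3.85 to 11.4). The 3′ end of Ddit3 overlaps that of Mars, a tRNA synthetase gene on the opposite strand. Mars was at 6.46 to 13.7 RPKM over the 6 libraries, and the use of strand in counting is not stated in the sources used here.

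**Figure D2:**
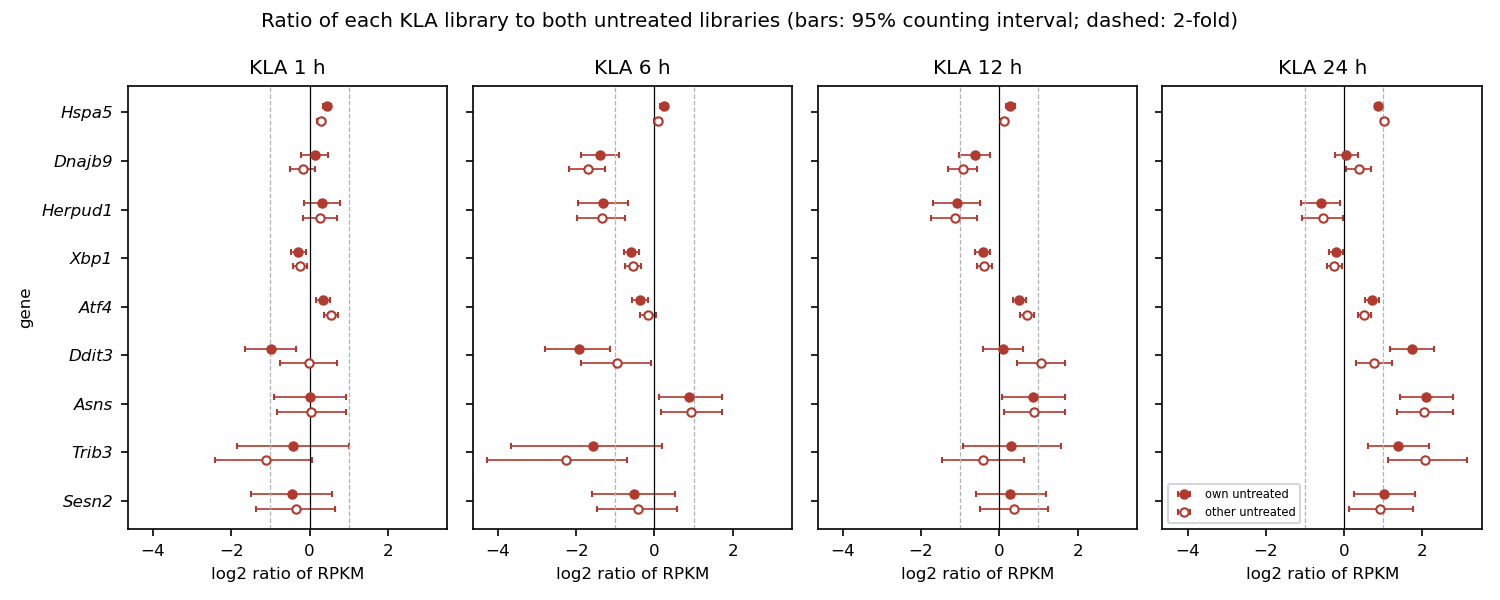
Log2 ratio of RPKM (horizontal axes) of the 9 genes in each KLA library against the designated untreated library (filled points) and against the other untreated library (open points), with bars for 95% counting intervals and dashed lines at 2-fold. Filled and open points lie farthest apart for Ddit3, whose 24 h ratio was 3.31 or 1.69, and Asns at 24 h is beyond the dashed line against both.

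Asns encodes asparagine synthetase, a classical ATF4 target that makes asparagine from aspartate and glutamine. It was at 4.94 RPKM (untreated, 1 to 12 h; 21 reads), 4.98 (KLA 1 h; 23 reads), 9.19 (KLA 6 h; 42 reads), 8.91 (KLA 12 h; 42 reads), 4.82 (untreated, 24 h; 24 reads) and 20.4 (KLA 24 h; 105 reads). The untreated libraries and KLA 1 h lay together, KLA 6 h and 12 h above them, and KLA 24 h above all. The ratio at 24 h was 4.23 (2.70 to 6.90), the largest of the 9 members, and 4.12 against the other untreated library. At 6 h it was 1.86 (1.08 to 3.30) and at 12 h 1.80 (1.04 to 3.20). Asns was thus above its control at 6 h, when Ddit3, Dnajb9 and Herpud1 were 2-fold lower, and after rescaling to the median of all genes it was the only member 2-fold higher at 6 and 12 h.

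Trib3 encodes a pseudokinase that binds AKT and also ATF4, on which it acts as a feedback inhibitor. Its levels were 2.43 RPKM (untreated, 1 to 12 h; 11 reads), 1.83 (KLA 1 h; 9 reads), 0.822 (KLA 6 h; 4 reads), 2.99 (KLA 12 h; 15 reads), 3.96 (untreated, 24 h; 21 reads) and 10.2 (KLA 24 h; 56 reads). KLA 24 h was the highest and KLA 6 h the lowest, and the 5 libraries other than KLA 24 h rested on few reads. The ratio was 2.58 at 24 h (1.54 to 4.49) and 4.20 against the other untreated library. At 6 h it was 0.338, with an interval of 0.0785 to 1.14 that includes 1, and against the other untreated library 0.208 (0.0518 to 0.616). The calls of Trib3 turned on the pseudocount: with 3 it was not 2-fold higher at 24 h (log2 ratio 0.92), and with 0.1 it was 2-fold lower at 6 h (−1.46). KLA 24 h was 12.4-fold above KLA 6 h (4.59 to 47.2), a wide interval since KLA 6 h had 4 reads.

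Sesn2 encodes sestrin 2, a leucine sensor that restrains mTORC1. Its levels were 3.42 RPKM (untreated, 1 to 12 h; 20 reads), 2.51 (KLA 1 h; 16 reads), 2.38 (KLA 6 h; 15 reads), 4.16 (KLA 12 h; 27 reads), 3.20 (untreated, 24 h; 22 reads) and 6.48 (KLA 24 h; 46 reads). KLA 24 h was the highest, but its interval against KLA 12 h included 1 (ratio 1.56, 0.949 to 2.61). The plain ratio to the untreated library of 24 h was 2.02 (1.19 to 3.53). On log2(RPKM + 1) the ratio was 0.83, so Sesn2 was not counted as 2-fold higher.

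By counting error alone, 6 of 9 members lay above their control at 24 h (Hspa5, Atf4, Ddit3, Asns, Trib3 and Sesn2), beside 19.3% of all genes tested, and 2 below it (Xbp1 and Herpud1), beside 26.6%. At 6 h, 2 were above (Hspa5 and Asns), beside 13.8%, and 5 below (Atf4, Ddit3, Xbp1, Herpud1 and Dnajb9), beside 42.5%. At 1 h, 2 were above and 2 below, beside 6.76% and 19.2%, and at 12 h 3 and 3, beside 14% and 35.8%. Between the untreated libraries 1 member was above (Hspa5) and 2 below (Atf4 and Ddit3), beside 16.4% and 12.4%. These differences without KLA were 1.12-fold for Hspa5, 1.15-fold for Atf4 and 1.96-fold for Ddit3. Since genes with more reads have narrower intervals, these counts also depend on expression level.

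The wider pathways were described with lists of 104 other genes, whose counts are to be read against the shares of all genes tested. Those shares were 3.65% higher and 4.09% lower at 1 h, 9.35% and 22.4% at 6 h, 8.88% and 16.3% at 12 h, and 9.98% and 10.6% at 24 h. Of 19 other ER chaperones and foldases, 0 were 2-fold apart at 1 h, 3 were lower at 6 h, 1 was lower at 12 h and 2 were higher at 24 h. Their median log2(RPKM + 1) ratios were −0.27, −0.63, −0.20 and 0.38. Sdf2l1, a BiP cofactor, was 3.06-fold lower at 6 h (2.32 to 4.08), and the disulfide isomerase Pdia4 was 2.17-fold lower. At 24 h Manf, a secreted ER stress protein, was 2.11-fold higher (1.78 to 2.51; 1.80-fold against the other untreated library) and Ero1l, the oxidase that recharges disulfide isomerases, 2.16-fold higher (1.69 to 2.78). The counts at 6 and 12 h were no larger a share than that of all genes, and the count at 24 h was near it.

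Genes of ER-associated degradation, with 14 of 15 tested, had medians of −0.23, −0.38, −0.43 and −0.03, and 0 were 2-fold apart at 24 h. Edem2, one of the lectin-like mannosidases that mark glycoproteins for disposal, was 2.35-fold lower at 6 h, and Edem3 2.53-fold lower at 12 h (4.35-fold against the other untreated library). Edem1 was 1.85-fold and 1.94-fold lower at these times, and at 24 h it was 1.62-fold lower (1.47 to 1.79). Herpud2, the paralog of Herpud1, was 1.70-fold lower at 24 h (1.37 to 2.11). Other genes of the list lay above their control at 24 h. Syvn1, the ubiquitin ligase HRD1, was at 12.5 RPKM untreated and 22.1 RPKM after KLA (log2 ratio of RPKM + 1 of 0.78), and Vimp had a log2 ratio of 0.52. Both were chosen after their values were seen.

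Among 18 stress sensors and regulators the direction differed from gene to gene. At 1 h, 2 were higher (Ppp1r15a and Cebpb), at 6 h 3 were higher and 5 lower, at 12 h 2 and 3, and at 24 h 2 were higher and 0 lower. The lower counts at 6 and 12 h and the higher count at 24 h were near the shares of all genes. Ppp1r15a encodes GADD34, which reverses eIF2α phosphorylation, and was at 19.1 RPKM in the untreated and 294 RPKM in the KLA 1 h library, a ratio of 15.4 (12.6 to 19.1), or 23.4 against the other untreated library. Eif2ak2 encodes PKR, the eIF2α kinase activated by double-stranded RNA, and was 12.1-fold higher at 6 h (8.71 to 17.3). Ppp1r15b, the constitutively expressed paralog of Ppp1r15a, was 3.07-fold higher at 6 h, and 1.91-fold against the other untreated library. Eif2ak3 encodes PERK and was 4.47-fold lower at 6 h (2.41 to 8.93) and 2.07-fold lower at 24 h. Of these eIF2α kinases, PKR was thus above and PERK below the untreated library at 6, 12 and 24 h. Eif2ak4, which encodes GCN2, had log2(RPKM + 1) ratios of −1.09 at 6 h and 0.57 at 24 h, and Eif2ak1 −0.47 and −0.02. At the same times Atf6 had −1.20 and −0.93, and Ern1, which encodes IRE1, −0.42 and −0.64.

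Genes of amino acid synthesis and transport, of which 12 of 17 were tested, had medians above that of all genes at each time: 0.21, 0.32, 0.26 and 0.49. At 1 h 0 were 2-fold apart, at 6 h 4 were higher and 2 lower, at 12 h 2 and 1, and at 24 h 3 were higher and 0 lower, beside 9.35% and 22.4% of all genes at 6 h and 9.98% and 10.6% at 24 h. Mthfd2, a mitochondrial enzyme of folate-dependent one-carbon metabolism, was 4.28-fold higher at 6 h (3.00 to 6.25) and 4.84-fold at 24 h (3.64 to 6.53). Slc7a11, the cystine importer, was 3.54-fold higher at 6 h and 4.52-fold at 24 h. Slc7a5, a leucine transporter, was 3.92-fold (1.86 to 9.23) and 3.35-fold (1.86 to 6.41) higher, with 9 and 15 reads in the untreated libraries. Slc38a2, a glutamine and alanine transporter and also an ATF4 target, was 2.55-fold lower at 6 h (1.99 to 3.30). Mthfd2, Slc7a11 and Slc7a5 were thus above their control at 6 h, as was Asns.

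The 20 aminoacyl-tRNA synthetases had medians of −0.27, −0.18, −0.10 and 0.68. At 24 h, 5 were 2-fold higher (Aars, Kars, Rars, Wars and Yars), beside 9.98% of all genes, and 0 lower, beside 10.6%. Wars, which is also induced by interferon, was 5.12-fold higher at 6 h and 5.13-fold at 24 h (4.31 to 6.14). Kars was 2.88-fold (2.29 to 3.65), Yars 2.41-fold (1.83-fold against the other untreated library) and Rars 2.19-fold higher at 24 h. Apart from Wars, 0 synthetases were 2-fold higher at 6 or 12 h against the designated control. Against the other untreated library, Kars was 2.33-fold higher at 6 h and 2.51-fold at 12 h, and Rars 2.08-fold at 6 h.

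Other targets of ATF4 and CHOP, of which 7 of 11 were tested, had medians of 0.85, 0, 0.52 and 0.58. At 1 h, 3 were 2-fold higher and 0 lower, and at 6 h 1 was higher and 2 lower. At 12 h, 2 were higher and 2 lower, and at 24 h 2 were higher and 1 lower. Bbc3 was below its control throughout, with log2(RPKM + 1) ratios of −0.98, −1.73, −1.96 and −0.81 at the 4 times. Gdf15, a stress cytokine, was at 51.5 RPKM untreated and 1206 RPKM after KLA for 1 h, a ratio of 23.4 (19.6 to 28.3), and at 24 h its ratio was 1.28 (0.923 to 1.77). Against the other untreated library these ratios were 49.0 and 0.610, so its direction at 24 h turned with the control. Bcl2l11, which encodes the death-promoting protein BIM, was 7.56-fold higher at 1 h and 2.56-fold lower at 24 h (1.94 to 3.41; 1.73-fold against the other untreated library). Nupr1, a small stress-induced chromatin protein, was 6.33-fold higher at 1 h and 18.4-fold at 24 h (7.61 to 57.9), with 9 and 5 reads in the untreated libraries. Against the other untreated library the ratios were 13.4 and 8.70, so their order turned with the control. Ddit4, an inhibitor of mTORC1, went from 2 reads in the untreated library to 32 at 24 h, a ratio of 15.5 (3.95 to 133), or 6.60 against the other untreated library. In KLA 1 h Ddit3 was at 16.7 RPKM, beside 16.9 and 33.1 RPKM in the untreated libraries, and Atf4 at 181 RPKM, beside 124 and 143 RPKM. Whether either had a part in the early maxima of Gdf15 and Bcl2l11 was not tested.

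**Figure D3:**
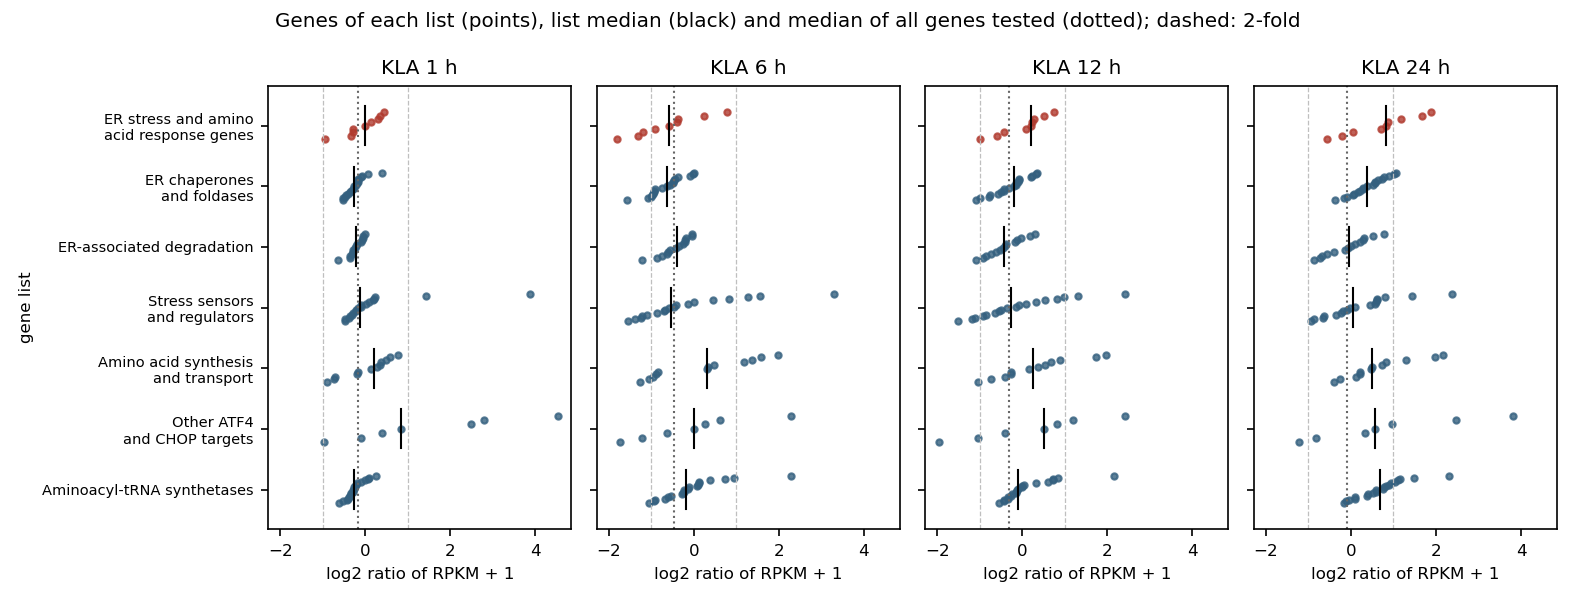
Log2 ratio of RPKM + 1 (horizontal axes) of each tested gene in 7 lists at the 4 times after KLA, with red points for the 9 members, blue points for other genes, black bars for list medians and dotted lines for the median of all genes tested. At 24 h the members' median of 0.83 and the synthetases' median of 0.68 lie to the right of the dotted line at −0.09, and the median for ER-associated degradation is at −0.03.

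Genes whose profile was most like that of a member were found for the 7 members spanning at least 1 on log2(RPKM + 1), by root mean square distance of centred profiles over the 6 libraries among 6684 genes. The nearest to Ddit3 was Pfkl at a distance of 0.28, followed by Nsmce1 and Zwint. Those nearest to Asns were Inpp5b (0.16), Ly75 and Ifnar2, and to Trib3 Mreg (0.15), Mrpl47 and Tbc1d9. Sesn2 had Luc7l (0.04), Ing1 and Creld2 as nearest, of which Creld2 encodes an ER stress-inducible protein. For Hspa5 they were Fam98b (0.07), Tapt1 and Smurf1, for Herpud1 Stac2 (0.07), Rchy1 and Zak, and for Dnajb9 Eif2d (0.12), Cryzl1 and Hnrnpl. In no case was the nearest gene another member. Only genes of mean RPKM at least 5 were searched, which left out Trib3 and Sesn2, so neither could be returned.

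SREBP1 peaks lay within 10 kb of the start site of 8 of 9 members, all but Asns, beside 59.2% of all genes tested. There were 15 such peaks among 13984. LXR peaks lay near 6 of 9, all but Hspa5, Asns and Trib3, beside 75.5% of all genes, with 14 peaks among 40660. Both factors had a peak near 6 of 9 members, beside 49% of genes. Distances run from the peak's centre to the start site in mm9, along the gene's strand, and heights are the authors' normalised tags, which have no replicate. Peaks near the members had a median of 13.9 tags for SREBP1, where the list's median was 11.1, and 18.7 for LXR, where it was 28.

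Ddit3 (chromosome 10, 126727849 to 126733344, plus strand, mm9) had the tallest LXR peaks of the 9. LXR peaks stood 1400, 909 and 146 bases before its start site, with 134.6, 245.3 and 53.3 tags. The middle one ranked 537 of the list by tags. SREBP1 peaks stood 1333 and 92 bases before it, with 21.7 and 17.6 tags, and each overlapped an LXR peak. All 5 peaks were thus above the median of their own list.

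Atf4 (chromosome 15, 80085614 to 80087975, plus strand) had 4 SREBP1 and 4 LXR peaks. The SREBP1 peak 401 bases past the start, inside the gene, had 22.5 tags and was the tallest of that factor near any member, with rank 441. Others lay 43 bases before the start (19.7 tags), 5543 before it (15.6) and 9287 past it (22.1). LXR peaks lay 856 bases before and 113, 943 and 9237 bases past the start, at 13.3 to 37.3 tags. The SREBP1 peaks at 43 bases before and 9287 bases past the start each overlapped an LXR peak.

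Dnajb9 had an SREBP1 peak 21 bases past its start (18.9 tags) that overlapped an LXR peak 70 bases before it (24 tags). Herpud1 had SREBP1 peaks 287 bases before and 754 past the start, each overlapping an LXR peak, with 9.84 to 18.7 tags over both factors. Hspa5 had 1 SREBP1 peak, 662 bases before its start (11.9 tags). Xbp1 had SREBP1 peaks 8885 bases before and 1414 past its start, and LXR peaks 243 and 991 bases past it. Of the ATF4 targets, Trib3 had 1 SREBP1 peak 444 bases past its start (9.02 tags), and Sesn2 had an SREBP1 peak 4801 bases before and an LXR peak 1 base past its start. Asns, the member with the largest ratio at 24 h, had neither. In all, 7 of the 15 SREBP1 peaks shared bases with an LXR peak, at Atf4, Ddit3, Herpud1 and Dnajb9. The peaks were mapped after GW3965 and the RNA after KLA, so binding and RNA level were not measured under the same treatment.

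**Figure D4:**
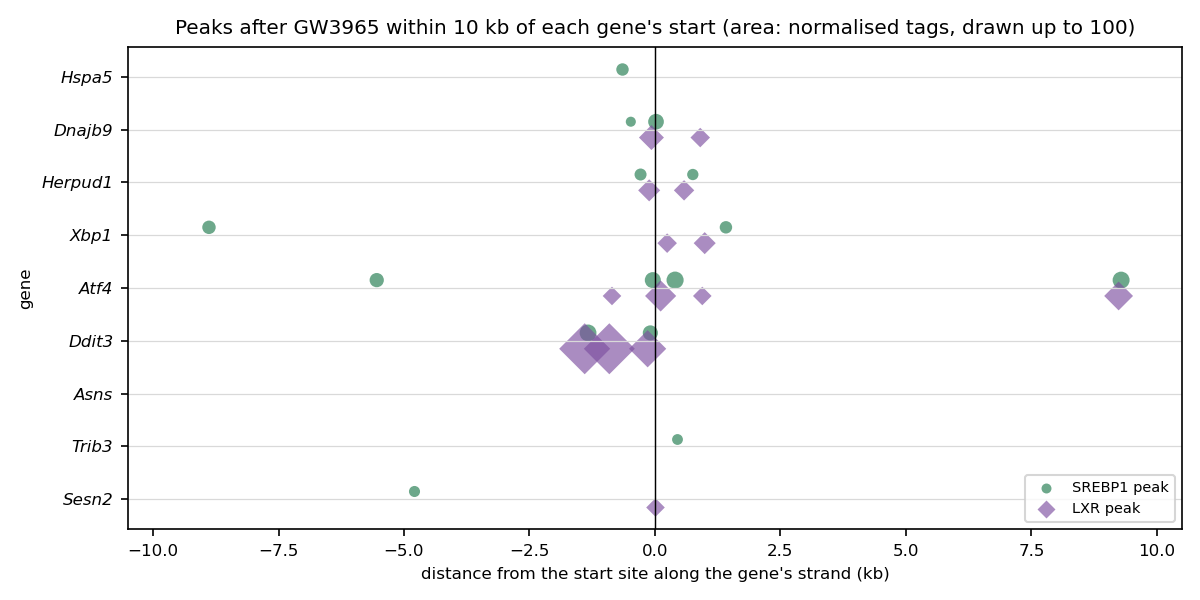
Distance in kb of SREBP1 (green circles) and LXR (purple diamonds) peak centres from the start site of each member (horizontal axis, negative before the start), with the area of a symbol proportional to normalised tags up to 100. The large diamonds before the start of Ddit3 are the peaks of 134.6 and 245.3 tags, and the row of Asns is empty.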

How the data were processed

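Poly(A) RNA was measured in 6 libraries of thioglycollate-elicited macrophages, and SREBP1 and LXR binding in 2 peak lists, among 103 samples of the series. The rest of the samples were not used here. The authors deposited the RNA levels as RPKM, for 33022 transcripts on mm9. The submitters' processing notes name Bowtie 0.12.7, STAR, HOMER and mm9 with no role. Peaks were called with HOMER, per the file headers, at a false discovery rate of 0.001 and 4-fold over input. A Poisson p-value of 1.00e-04 over the local region was also required, with 10000 bases as the region used for local filtering. The normalised tag signal of a peak is scaled to 10000000 tags, per the file headers. The deposited fold over input is the ratio HOMER gave, used only to filter peaks, and the deposited peak score was not used. The SREBP1 list comes from 24395376 tags of a combined directory and the LXR list from 7501248 tags, per the file headers. The LXR sample's title names GW3965 while its treatment field reads as a control, and its header names an input from KLA-treated cells. Samples were used under their titles.

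Reads were recovered as RPKM × transcript length × a library total, and 99.97% of nonzero values came out whole within 0.01 read. Ratios carry 95% exact conditional binomial (Clopper-Pearson) intervals. The filter for tested genes was an RPKM of 1 or more in 2 libraries, with a pseudocount of 1 and a 2-fold threshold. The recovery and ratio steps were tested on simulated data. All 9 members were named, with the 4 genes of largest log2 ratio per other list whose interval left out 1, and the 3 nearest profiles per member among genes of mean RPKM at least 5. The members and lists were chosen with earlier results of these data known. Alternatives were other pseudocounts, no filter on low values, the other untreated library, rescaling, summed transcripts and other peak settings. Computation used Python 3.11.15, pandas 2.3.3, numpy 2.4.6 and scipy 1.17.1.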

Additional observations from a re-analysis of the deposited data

Results flagged for a closer look

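Ddit3 and Atf4 lay on opposite sides of their untreated library at 6 and 24 h of KLA. For Ddit3 the log2(RPKM) ratio at 24 h exceeded that at 6 h by 3.65, with a ratio of 3.31 at 24 h and a level 3.80-fold lower at 6 h. For Atf4 the difference was 1.08, with ratios of 1.64 and 0.774. With 1 library per condition the differences were not tested. The untreated libraries for the 2 times are different ones, and they were 1.96-fold apart for Ddit3. For Atf4 the direction at 6 h turned when the libraries were rescaled (log2 ratio 0.09). Its 6 h ratio to the other untreated library was 0.889, with an interval of 0.774 to 1.02 that includes 1.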

How the results depend on the processing

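No paired analysis was possible because each condition had 1 library. Rescaling to a median ratio of 0 gave 1 member 2-fold higher (Asns) and 1 lower (Ddit3) at 6 h, and 1 higher (Asns) and 0 lower at 12 h. A pseudocount of 3 left 0 members lower at 12 h and 2 higher at 24 h (Ddit3 and Asns), and one of 0.1 gave 4 lower at 6 h, Trib3 added. With the other untreated library as control, 1 member (Ddit3) was 2-fold higher at 12 h, the 3 members lower at 6 h were Herpud1, Dnajb9 and Trib3, and the 3 higher at 24 h were Hspa5, Asns and Trib3. A window of 50 kb held 27 SREBP1 and 54 LXR peaks. With centres within 50 bases as the criterion, 1 SREBP1 peak was shared with LXR in place of 7. Without a filter on low values the shares of all genes called were lower, for example 4.75% higher and 4.91% lower at 24 h. Of 180 single-gene ratios under alternatives, 22 moved by more than their counting interval, 13 with the other untreated library and 9 on rescaling. Depth limits Trib3, Sesn2 and Asns most.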

Other observations

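Of 4 paralogs of the members, 3 were tested, and Sesn1 and Trib1 were 2-fold apart from the untreated library at 1 or more times. Sesn1, a p53- and FoxO-regulated sestrin, was at 28.0 RPKM (untreated, 1 to 12 h), 11.5 (KLA 1 h), 1.29 (KLA 6 h), 2.82 (KLA 12 h), 29.6 (untreated, 24 h) and 3.58 (KLA 24 h). All 4 KLA libraries lay below both untreated ones, and the level was 21.7-fold lower at 6 h (10.7 to 51.0) and 8.27-fold lower at 24 h (5.44 to 13.1). Sesn2 had its highest level in KLA 24 h, so at that time the sestrins were on opposite sides of their control. Trib1, a tribbles pseudokinase that directs C/EBPα to degradation, was at 1.92 RPKM untreated and 27.7 RPKM after KLA for 1 h, a ratio of 14.5 (8.88 to 25.2). In KLA 24 h it was at 1.39 RPKM, with a ratio of 0.605 (0.295 to 1.20), in the library where Trib3 was highest. Each value comes from 1 library, and the differences between paralogs were not tested.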
